A study of Homo sapiens with 6 samples.

Results

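The genes described here make and join DNA in S phase, supply its nucleotides and switch that phase on. They are 53 genes, listed by name for their known roles with earlier results of these data in view, and all 53 were found among the 25349 genes of the count table. They fall into 10 roles, namely the MCM helicase (7 genes), origin licensing (5), GINS and CDC45 (5), the sliding clamp and its loader (6), DNA polymerases and primase (9), RPA with the enzymes that join Okazaki fragments (5), nucleotide enzymes (4), chromatin assembly with maintenance methylation (4), entry into S phase (5), and fork protection with a ubiquitin ligase adaptor (3). The cells were SCC-9, an established line of human tongue squamous carcinoma, grown with serum and hydrocortisone. Both groups received lipid transfections at 10 nM on day 0 and day 2 and gave RNA on day 4. One group received an siRNA directed at exon 7 of MKI67 (siE7, 3 libraries) and the control group a nonspecific siRNA (siNC, 3 libraries), and the comparison asks how the genes differ between these groups. The effect of a transient siRNA was thus read in a single cell line, and the methods name 3 exon 7 siRNAs without saying which of them gave these libraries. Nothing in the labels says whether the libraries of a group came from separate cultures, so p-values measure only the spread between these libraries, which may be technical.

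Replication starts in G1, when ORC, CDC6 and CDT1 load the MCM2 to MCM7 ring onto origins. In S phase CDC45 and the GINS complex join the ring to form the active helicase, polymerases copy both strands, PCNA holds them to the template, and FEN1 and LIG1 finish the lagging strand. E2F transcription factors switch on many of these genes as cells pass from G1 into S, so the transcripts are widely used to read proliferation, and cyclin E drives the same step as a kinase partner.

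To show the E2F element in place, 7 promoters that hold it are given. They were picked for holding it, and they do not stand for all 53 genes. Each line is a 100-base stretch of the RefSeq promoter (GRCh38.p14), read 5′ to 3′ on the strand of the gene, and capitals mark matches to TTTCCCGC, TTTCGCGC, TTTGCCGC or TTTGGCGC on either strand. Where matches on both strands overlap, the capitals run together. The stretches are, in order, chr20:33686363-33686462 (minus strand), chr1:23531226-23531325 (minus), chr20:5126632-5126731 (minus), chr20:25407623-25407722 (plus), chr18:657564-657663 (plus), chr3:127598361-127598460 (plus) and chr2:135876513-135876612 (minus).
E2F1: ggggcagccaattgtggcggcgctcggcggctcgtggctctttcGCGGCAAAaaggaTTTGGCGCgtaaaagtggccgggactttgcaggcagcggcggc
E2F2: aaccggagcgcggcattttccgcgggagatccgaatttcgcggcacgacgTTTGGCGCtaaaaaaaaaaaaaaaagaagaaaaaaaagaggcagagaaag
PCNA: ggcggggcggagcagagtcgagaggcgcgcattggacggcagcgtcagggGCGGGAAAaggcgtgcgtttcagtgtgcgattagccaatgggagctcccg
GINS1: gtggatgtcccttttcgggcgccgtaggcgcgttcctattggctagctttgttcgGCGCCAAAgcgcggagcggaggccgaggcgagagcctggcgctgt
TYMS: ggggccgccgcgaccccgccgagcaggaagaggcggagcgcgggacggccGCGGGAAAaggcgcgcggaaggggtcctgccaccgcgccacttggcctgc
MCM2: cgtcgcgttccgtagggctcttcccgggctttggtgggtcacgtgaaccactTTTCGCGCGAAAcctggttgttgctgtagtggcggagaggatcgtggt
MCM6: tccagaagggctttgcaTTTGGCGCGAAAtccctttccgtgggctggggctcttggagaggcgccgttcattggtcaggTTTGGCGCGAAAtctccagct
The first 3 belong to the genes that rose with siE7, the next 3 to genes that fell, and the last to a gene that did not pass the test. MCM6 held 4 matches, in 2 overlapping pairs, and MCM2 and E2F1 held 2 each. Of the 53 genes, 46 had a promoter in the table, with 250 bases before and 50 after the start, and 24 of these (52.2%) held at least 1 match. Only 1 start was scanned for each gene, so a match near another start would be missed. The share was 3.33% over all 27305 promoters and 5.43% over the 10529 promoters of tested genes. It was 3 of 3 among genes that rose, 13 of 21 (61.9%) among those that fell and 8 of 22 (36.4%) among those that did not pass the test. The genes that fell and held none in this window were CCNE1, POLD2, POLD1, RFC2, TK1, RPA1, FEN1 and CDC45, so that CCNE1, with the second largest fall, has no match. These are counts of letters in a window and not of occupied sites, and no factor binding was measured. CCNE2, GINS4, MCM4, MCM5, POLD3, RPA2 and RPA3 had no entry.

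The libraries held 25895920 to 28242947 counts on genes with siNC and 25608192 to 29550264 with siE7. After the filter on low counts 14661 genes were tested, including all 53. The targeted gene MKI67 averaged 1059 CPM (SD 26.7, n = 3) in siNC and 115 CPM (SD 8.70, n = 3) in siE7 libraries, a log2 fold change of -3.21, and was lower in every siE7 library. CPM are counts scaled to the library size, here with TMM factors. The 53 genes took 0.626% to 0.636% of all counts in the siNC libraries and 0.551% to 0.557% in the siE7 libraries. All 8 keratinocyte markers had counts in every library, with a summed level of 27334 to 28278 CPM by library totals in siNC and 22870 to 27808 in siE7. Of 6 fibroblast markers 4 or 5 had a count, with sums of 15.8 to 18.3 CPM by library totals in siNC and 20.0 to 24.2 in siE7, mostly COL1A1, while COL3A1 was at 0 in the siNC libraries and LUM at 0 in the siE7 libraries. Of 5 immune markers only CD68 was counted, at 0 to 3 reads. The part of these markers in the results was not tested. siE7 replicate 1 stood apart from the other siE7 libraries, with a chi-square of 61.1 and 72.7 per degree of freedom against them, where other pairs of one group gave 5.54 to 6.22. Results are therefore also given without it. In bulk RNA, fewer cells in S phase and less RNA per cell cannot be told apart.

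With siE7, 24 of the 53 genes fell and 3 rose, while 26 did not pass the test (edgeR's quasi-likelihood test, Benjamini-Hochberg adjusted p under 0.05 over all tested genes). Among all 14661 genes 16.0% were called lower and 18.0% higher. Each of the 10 roles had at least 1 gene that fell. For origin licensing (1 of 5, 20.0%), the clamp and its loader (1 of 6, 16.7%) and S phase entry (1 of 5, 20.0%) the share was near that of all genes. The median log2 fold changes of these roles were above 0, at 0.23, 0.20 and 0.52. Among the 24 were 5 of the 6 subunits of the MCM2 to MCM7 ring, GINS1 and GINS2, the catalytic subunits POLA1, POLD1 and POLE of the replicative polymerases, thymidylate synthase, thymidine kinase, UHRF1 and DNMT1. The genes that rose were the transcription factors E2F1 and E2F2 and the clamp PCNA. The changes were moderate. The median log2 fold change was -0.28, with a range from -0.94 for GINS1 to 0.90 for E2F2, against a median of 0.08 over all tested genes. None of the 53 passed the threshold for a differentially expressed gene, a log2 fold change beyond 1 with adjusted p under 0.05, which 7.38% of tested genes passed as higher and 4.84% as lower. A value below 0, whether called or not, was found in 36 of the 53, against 44.4% of all tested genes. In 26 genes every siE7 library lay below every siNC library, in 6 every one lay above, and in 21 the groups overlapped. Over all tested genes the groups were apart in the lower direction for 22.7% and in the higher direction for 24.9%.

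**Figure D1:**
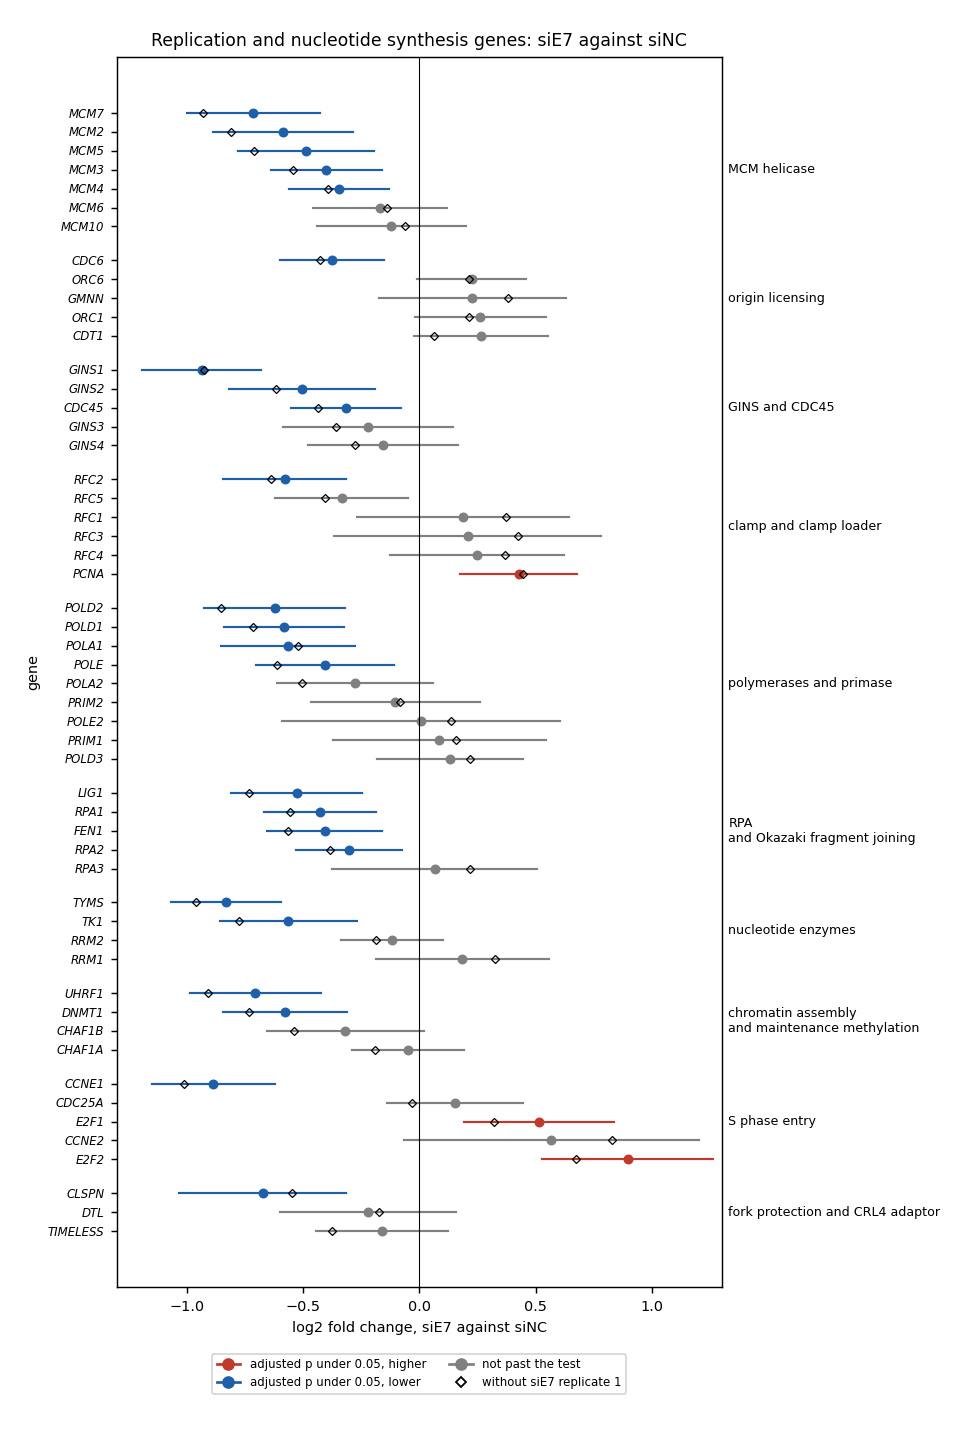
Log2 fold change of siE7 against siNC (x axis) for each of the 53 genes (y axis, grouped by role), with 95% confidence intervals as bars. Blue marks the 24 genes that fell, red the 3 that rose and grey the 26 that did not pass the test, and open diamonds give the value without siE7 replicate 1, which lies above 0 for several grey genes of the clamp loader and licensing roles.

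The count depends on siE7 replicate 1 and on the scaling of the libraries. Without siE7 replicate 1, 32 genes were called lower and 11 higher, where 29.5% and 28.9% of all tested genes were. All 27 genes called with the full set were called in the same direction. Leaving out siNC replicate 1, 2 or 3 gave 15 lower each time, where 10.5%, 10.5% and 10.3% of all genes were, and 1, 1 and 2 higher, where 10.8%, 10.6% and 10.6% were. Without siE7 replicate 2 or 3 the counts were 16 and 17 lower (12.3% and 12.9% of all genes) and 2 and 3 higher (13.0% and 13.9%). E2F1 lost its call without siNC replicate 1 or 2, and PCNA without any siNC library or siE7 replicate 2. DESeq2 called 25 lower and 3 higher, against 18.2% and 16.3% of all genes. Scaled by library totals instead of TMM factors, 16 were called lower and 7 higher, against 11.1% and 27.5% of all genes. That scaling moved the median of all genes up by 0.169 on the log2 scale and the share of higher genes among all calls from 52.9% to 71.2%. Relative to the median of all genes, the median of the 53 was -0.36 under both scalings. The 12 genes called lower under every one of the 17 alternatives were MCM2, MCM7, GINS1, RFC2, POLD1, POLD2, LIG1, TYMS, TK1, UHRF1, DNMT1 and CCNE1, and E2F2 was called higher under every one. The other 12 genes that fell were less steady. CDC45, POLE and RPA2 lost their call with upper-quartile factors, and CDC45 and RPA2 also with no filter on low counts and with at least 10 counts in every library. MCM3, CDC45, POLE, RPA2 and FEN1 lost their call without any one library other than siE7 replicate 1, MCM4 without any siNC library or siE7 replicate 3, and CDC6 without any siNC library or siE7 replicate 2. MCM5 lost it without siNC replicate 2 or 3 or siE7 replicate 2 or 3, GINS2 without siNC replicate 1 or 2 or siE7 replicate 2, and RPA1 without siNC replicate 1 or 3. POLA1 and CLSPN lost it with library totals alone.

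The MCM genes encode the ring that unwinds DNA ahead of the fork, and 5 of its 6 subunits fell with siE7. Their summed level was 1873, 1948 and 1914 CPM in the siNC libraries and 1527, 1333 and 1293 CPM in the siE7 libraries, so the groups did not overlap. MCM7 stood at 324, 339 and 328 CPM in siNC and at 243, 178 and 183 CPM in siE7. The log2 fold change came to -0.71 (SE 0.131, adjusted p = 0.0018 by edgeR's quasi-likelihood test). MCM2 had 308, 340 and 318 CPM in siNC and 261, 202 and 182 CPM in siE7, a log2 fold change of -0.58 (SE 0.137, adjusted p = 0.0072 by the same edgeR test). For both genes siE7 replicate 1 was the highest of the siE7 libraries and still lay below each siNC library. MCM5 (-0.49), MCM3 (-0.40) and MCM4 (-0.35) also fell. MCM6 gave a log2 fold change of -0.17 (95% interval -0.46 to 0.12), with 59.3, 68.5 and 63.4 CPM in siNC and 49.2, 65.8 and 55.0 CPM in siE7, so that the groups overlapped. In siNC libraries MCM6 was also the lowest of the ring subunits per length, at 15.4 CPM per kb of exons against 30.9 to 123 for the other subunits. MCM10, a separate factor that helps start the helicase, gave -0.12 and did not pass the test. With library totals MCM4 was no longer called and MCM6 and MCM10 gave values at or just above 0, and with the GC trend removed all 7 genes were called lower.

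The other parts of the active helicase are CDC45 and the 4 GINS subunits, and all 5 had a log2 fold change below 0, of which 3 passed the test. GINS1 showed the largest decrease of all 53 genes. It lies at chr20:25391008-25452700 on the plus strand and overlaps another annotated gene on the minus strand. The RefSeq promoter stretch given for it above lies inside this span. Its level was 76.0, 82.8 and 79.9 CPM in siNC and 37.3, 42.5 and 44.9 CPM in siE7. The log2 fold change was -0.94 (SE 0.117, adjusted p = 0.00015, edgeR's quasi-likelihood test), a level 47.7% lower as a fitted fold. Unlike MCM7 and MCM2, GINS1 was lowest in siE7 replicate 1. GINS2 had 27.7, 24.7 and 22.7 CPM in siNC and 19.0, 15.6 and 18.3 CPM in siE7, a log2 fold change of -0.50 (adjusted p = 0.019 by edgeR). CDC45 fell by 0.32 on the log2 scale (adjusted p = 0.042 by edgeR). GINS3 (-0.22) and GINS4 (-0.16) overlapped between the groups and passed the test only when siE7 replicate 1 was left out. With library totals, GINS1 alone of the 5 was called.

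Of the 5 origin licensing genes 1 fell and none rose. CDC6, which loads the ring with ORC, fell from 166, 171 and 176 CPM in siNC to 130, 130 and 135 CPM in siE7 (log2 fold change -0.37, SE 0.102, adjusted p = 0.015 by edgeR's quasi-likelihood test). The siE7 libraries were close to each other, and all lay below siNC. The other 4 genes of the group did not pass the test, with log2 fold changes between 0.23 and 0.27. ORC1, the large subunit of the origin recognition complex, had 17.9, 18.4 and 17.6 CPM in siNC and 21.2, 21.0 and 22.4 CPM in siE7 (log2 fold change 0.26, adjusted p = 0.14 by edgeR), and these libraries did not overlap either. ORC6 (0.23) and CDT1 (0.27) were apart in the same direction. GMNN, the geminin gene, whose product blocks CDT1, had 46.6, 45.0 and 45.3 CPM in siNC but 36.4, 59.3 and 64.8 CPM in siE7. Replicate 1 thus lay below all siNC libraries and the other siE7 libraries above them. With library totals ORC1, ORC6 and CDT1 were called higher and CDC6 was not called.

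**Figure D2:**
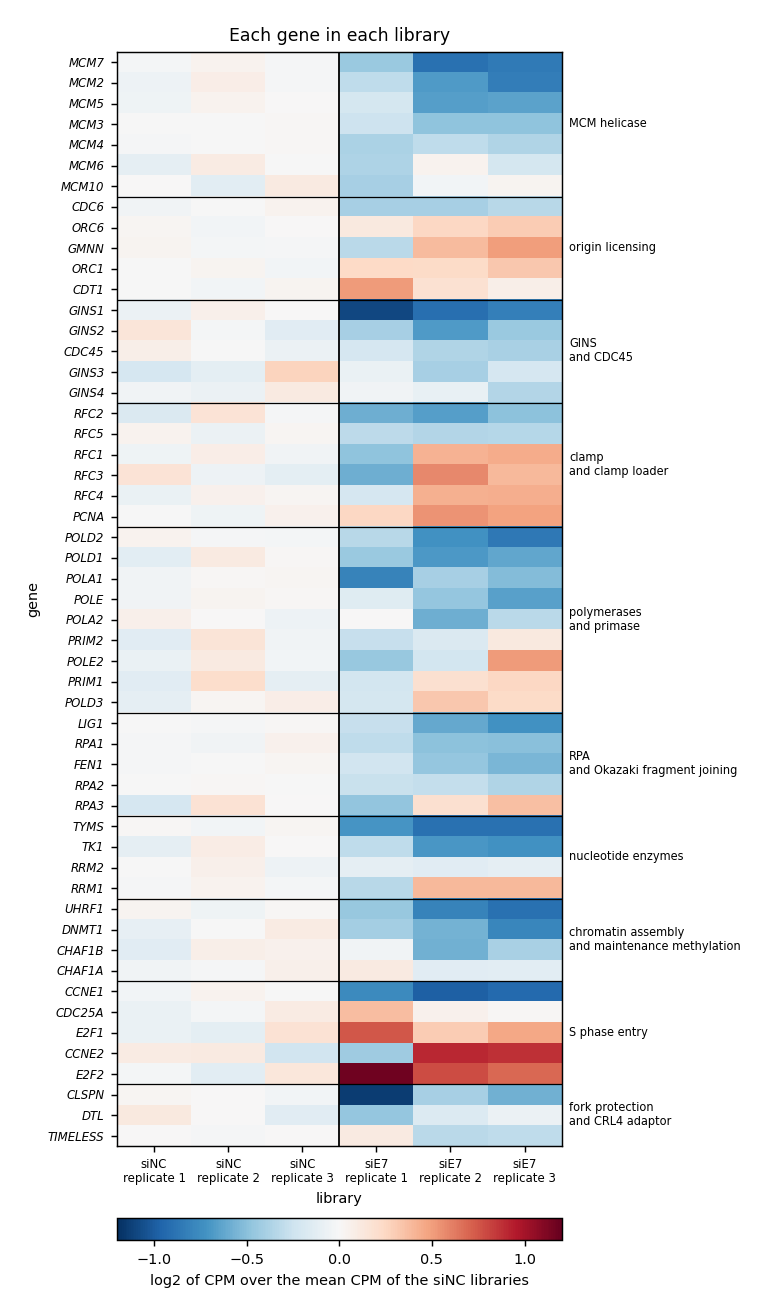
Each cell gives the log2 ratio of a gene's CPM in one library (x axis) to its mean in the siNC libraries, for the 53 genes grouped by role (y axis), in blue below 0 and red above 0. MCM2, MCM3, MCM4, MCM5 and MCM7 are blue in all siE7 libraries, while GMNN, RRM1, RFC1, RFC3, RFC4 and CCNE2 are blue in siE7 replicate 1 and red in replicates 2 and 3.

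PCNA, the sliding clamp, was one of the 3 genes that rose. It lies at chr20:5114953-5126626 on the minus strand. Its level was 83.0, 80.4 and 86.0 CPM in siNC and 99.0, 121 and 116 CPM in siE7, with no overlap. The log2 fold change was 0.43 (SE 0.115, adjusted p = 0.014 by edgeR's quasi-likelihood test). PCNA has 3 annotated pseudogenes, so its count is uncertain where reads were split among copies. The 5 RFC genes encode the pentamer that opens the clamp, and they differed among themselves. RFC2 fell, from 89.2, 113 and 99.97 CPM in siNC to 67.1, 63.5 and 71.6 CPM in siE7 (log2 fold change -0.58, SE 0.121, adjusted p = 0.0039 by edgeR). RFC5 gave -0.33 with groups apart and adjusted p = 0.068 by edgeR. RFC1 (0.19), RFC3 (0.21) and RFC4 (0.25) did not pass the test. Each of these was low in siE7 replicate 1 and high in the others, as in RFC1 with 31.5, 34.6 and 31.8 CPM in siNC and 23.3, 43.6 and 44.5 CPM in siE7. Without siE7 replicate 1 they were called higher, at 0.37, 0.42 and 0.37, while RFC2 and RFC5 were called lower. With the GC trend also removed, RFC1 (0.14) and RFC3 (0.16) were not called, and RFC4 was called higher at 0.21. RFC2 and RFC5 were still called lower there. RFC2 also had the highest level per length of the loader subunits in siNC, with 45.6 CPM per kb against 2.58 to 8.28 for the others.

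Among the polymerase genes all 3 catalytic subunits fell. POLA1, which extends the primer, had 40.7, 42.2 and 42.5 CPM in siNC and 24.0, 31.6 and 29.1 CPM in siE7 (log2 fold change -0.56, adjusted p = 0.007 by edgeR's quasi-likelihood test). POLD1, the catalytic subunit of polymerase delta on the lagging strand, had 91.1, 107 and 100 CPM in siNC and 73.2, 61.8 and 64.8 CPM in siE7 (-0.58, adjusted p = 0.0033 by edgeR). POLE, its counterpart on the leading strand, gave -0.40 (adjusted p = 0.038 by edgeR), with all siE7 libraries below siNC. In POLA1 replicate 1 was the lowest siE7 library and in POLD1 and POLE the highest. The second subunit of delta, POLD2, had 161, 155 and 153 CPM in siNC and 124, 94.6 and 86.1 CPM in siE7, a log2 fold change of -0.62 (SE 0.138, adjusted p = 0.0053 by edgeR). The accessory subunits POLA2 (-0.28), POLD3 (0.13) and POLE2 (0.01) and the primase subunits PRIM1 (0.09) and PRIM2 (-0.10) did not pass the test. POLE2 and PRIM1 were the lowest of the 53 genes, at 2.83 and 4.36 CPM in siNC. The interval of POLE2 ran from -0.59 to 0.61, with siE7 libraries at 2.06, 2.43 and 4.02 CPM. With library totals POLA1 and POLE were no longer called.

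RPA coats single-stranded DNA, FEN1 trims the flap of an Okazaki fragment and LIG1 seals the nick. LIG1 fell from 196, 194 and 199 CPM in siNC to 162, 128 and 119 CPM in siE7 (log2 fold change -0.53, SE 0.128, adjusted p = 0.0087 by edgeR's quasi-likelihood test). FEN1 fell from 306, 307 and 313 CPM to 263, 224 and 212 CPM (-0.41, adjusted p = 0.017 by edgeR). For both genes replicate 1 was nearest to siNC. RPA1, the large subunit, had 97.7, 95.7 and 102 CPM in siNC and 79.9, 70.3 and 69.8 CPM in siE7 (-0.43, adjusted p = 0.012 by edgeR), and RPA2 also fell (-0.30, adjusted p = 0.042 by edgeR). RPA3, the small subunit, gave 0.07 with overlapping libraries. With library totals RPA2 was not called.

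Of the nucleotide enzymes the thymidylate pair fell and the ribonucleotide reductase pair did not pass the test. TYMS, which makes dTMP from dUMP, lies at chr18:657653-673578. It had 147, 142 and 148 CPM in siNC and 89.3, 78.4 and 78.1 CPM in siE7, a log2 fold change of -0.83 (SE 0.109, adjusted p = 0.0002 by edgeR's quasi-likelihood test). Every siE7 library lay well below siNC, and the libraries of a group lay close together. TYMS overlaps 2 annotated genes on the other strand and has 2 pseudogenes, and its count is uncertain where reads were split. TK1, the salvage enzyme for thymidine, had 197, 226 and 214 CPM in siNC and 172, 131 and 128 CPM in siE7 (-0.56, SE 0.134, adjusted p = 0.0076 by edgeR). RRM2, the small subunit of ribonucleotide reductase, had 326, 342 and 313 CPM in siNC and 304, 298 and 302 CPM in siE7 (-0.12, 95% interval -0.34 to 0.10). RRM1, the large subunit, had 170, 176 and 169 CPM in siNC and 136, 224 and 225 CPM in siE7, with replicate 1 below and the others above every siNC library (log2 fold change 0.19). Without siE7 replicate 1, RRM1 was called higher at 0.33 and RRM2 lower at -0.18. When the GC trend was removed as well, RRM1 gave 0.12 and was not called, and RRM2 was called lower at -0.41.

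UHRF1 and DNMT1, which copy DNA methylation onto the new strand, both fell. UHRF1 had 332, 312 and 327 CPM in siNC and 236, 186 and 173 CPM in siE7 (log2 fold change -0.71, SE 0.128, adjusted p = 0.0017 by edgeR's quasi-likelihood test). DNMT1 had 595, 635 and 683 CPM in siNC and 481, 432 and 371 CPM in siE7 (-0.58, SE 0.121, adjusted p = 0.0039 by edgeR). The chromatin assembly factor subunits CHAF1A (-0.05) and CHAF1B (-0.32) did not pass the test. In siE7 replicate 1 CHAF1A lay above the siNC libraries and CHAF1B within their range, and both were called lower without it, at -0.19 and -0.54. In that fit with the GC trend removed as well, CHAF1A gave -0.0002 and was not called. CHAF1B was still called lower, at -0.53.

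The genes of entry into S phase moved in both directions. E2F2, an activator E2F, lies at chr1:23506438-23531233 and rose the most of the 53, from 11.3, 10.5 and 12.6 CPM in siNC to 25.8, 19.8 and 18.5 CPM in siE7. Its log2 fold change was 0.90 (SE 0.167, adjusted p = 0.002 by edgeR's quasi-likelihood test). E2F1 (chr20:33675477-33686385) had 28.1, 27.4 and 33.4 CPM in siNC and 49.8, 36.6 and 40.8 CPM in siE7 (0.52, SE 0.147, adjusted p = 0.019 by edgeR). Every siE7 library lay above siNC for both genes, with replicate 1 the highest. CCNE1, the gene of cyclin E1 at chr19:29811991-29824312, went the other way, from 43.2, 45.5 and 44.0 CPM to 26.1, 22.5 and 23.2 CPM (-0.89, SE 0.121, adjusted p = 0.00027 by edgeR). Without siE7 replicate 1 it reached -1.01, past the fold threshold. CCNE2, the gene of cyclin E2, had 11.1, 11.1 and 8.79 CPM in siNC and 7.66, 19.3 and 18.9 CPM in siE7, so replicate 1 was the lowest of all libraries and replicates 2 and 3 the highest. Its log2 fold change was 0.57 (adjusted p = 0.15 by edgeR), and 0.83 without siE7 replicate 1 (adjusted p = 1.4e-07 by edgeR). With the GC trend removed as well, it was 0.55 (adjusted p = 9e-05 by edgeR). The fits without siE7 replicate 1 leave out the siE7 library below siNC, and called 28.9% and 26.7% of all genes higher. CDC25A, the phosphatase that activates the cyclin E kinase, gave 0.15 and did not pass the test.

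**Figure D3:**
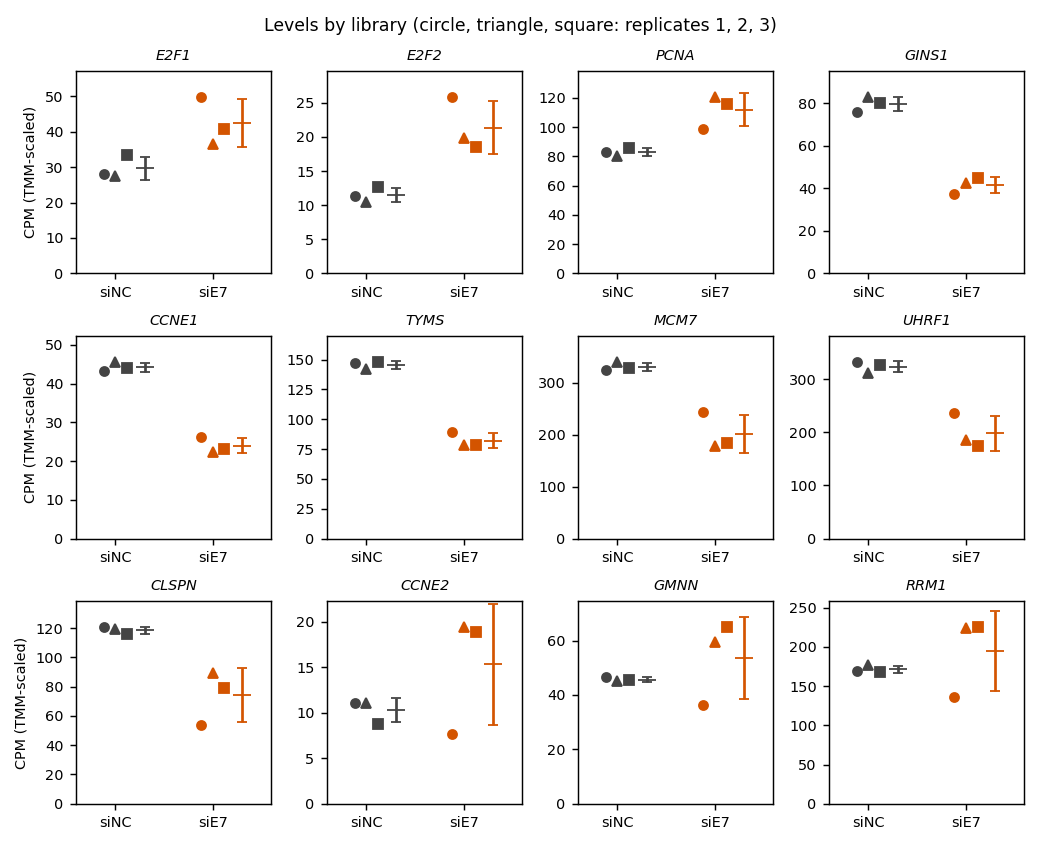
TMM-scaled CPM (y axes from 0, one scale for each gene) of 12 genes in the siNC and siE7 libraries. Circles, triangles and squares are replicates 1, 2 and 3, and bars give the mean and SD (n = 3). E2F1, E2F2 and PCNA lie higher in all siE7 libraries, GINS1, CCNE1, TYMS, MCM7, UHRF1 and CLSPN lie lower, and for CCNE2, GMNN and RRM1 replicate 1 lies below siNC and replicates 2 and 3 above.

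CLSPN, whose product claspin carries the checkpoint signal at stalled forks, fell from 120, 119 and 116 CPM in siNC to 53.8, 89.6 and 79.4 CPM in siE7 (log2 fold change -0.67, SE 0.164, adjusted p = 0.0086 by edgeR's quasi-likelihood test). Replicate 1 was the lowest here. TIMELESS, a fork protection protein, gave -0.16 and was called lower at -0.38 without siE7 replicate 1. DTL, the adaptor that brings CDT1 to the CRL4 ligase, gave -0.22 at 9.55 CPM in siNC and did not pass the test. With library totals none of the 3 was called, and CLSPN then had an adjusted p of 0.06 by edgeR.

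The difference between siE7 replicate 1 and the other siE7 libraries varied with the base composition of the transcripts. The log2 ratio of siE7 replicate 1 to the mean of replicates 2 and 3 rose with the GC content of the canonical transcript, with Pearson's r of 0.81 and Spearman's rho of 0.86 across the 53 genes, and 0.72 and 0.75 across 14645 tested genes. Genes are not independent replicates, and all points share the same 3 libraries, so these values are descriptions. Replicate 1 lay above both other libraries in 30 of the 53 genes, with a median GC content of 52.95%, and below both in 20, with a median of 42.75%. It lay between them for ORC1, CDC6 and RFC2. The lowest ratio was that of CCNE2 (-1.32, GC 34.6%), and RFC3 followed (-1.08, GC 38.0%). Across the 53 genes the log2 fold change of siE7 against siNC also varied with GC (Pearson's r -0.25, Spearman's rho -0.34). Across all tested genes these values were -0.045 and -0.071. Without siE7 replicate 1 they were -0.46 and -0.51 for the 53 genes, so leaving it out did not remove the relation with GC. After the GC trend of each library was removed, 30 of the 53 genes were called lower and 6 higher, against 26.1% and 24.5% of all genes, and the median was -0.34.

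**Figure D4:**
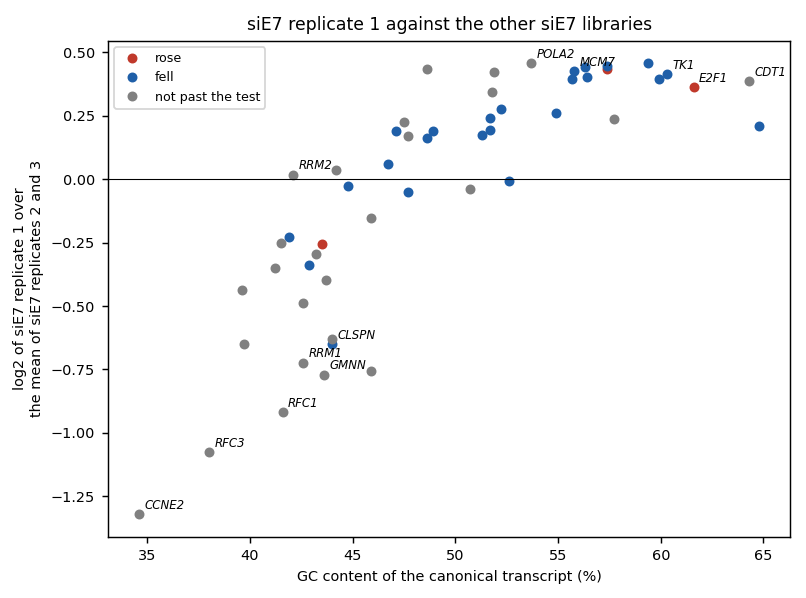
GC content of the canonical transcript in % (x axis) against the log2 ratio of siE7 replicate 1 to the mean of siE7 replicates 2 and 3 (y axis), 1 point for each of the 53 genes, coloured by the test of siE7 against siNC. The points climb from -1.32 for CCNE2 at 34.6% GC to positive values at high GC, and genes that fell lie on both sides of 0.

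A list of 101 other genes of replication, nucleotide synthesis, E2F control and the replication checkpoint, all tested, gave 25 genes that fell and 5 that rose, with a median of -0.14, where 16.0% of all tested genes fell and 18.0% rose. By role, 6 of 19 other fork factors fell and none rose, 6 of 16 other dNTP enzymes fell and 1 rose, 5 of 17 purine and pyrimidine synthesis genes fell, 3 of 16 other origin factors fell, and 1 of 12 checkpoint genes fell, with none rising in these last 3 roles. Of 11 other E2F and RB family genes 1 fell and 2 rose, and of 10 other chromatin replication genes 3 fell and 2 rose. The smallest p-values among those that fell belonged to RBBP4, a histone chaperone subunit of CAF-1, with a log2 fold change of -0.87, to MTHFD1 (-0.65) and to SHMT1 (-0.73). The last are folate enzymes that feed thymidylate synthesis, and SHMT1 had 47.6, 49.5 and 44.6 CPM in siNC and 28.1, 28.5 and 28.6 CPM in siE7. Those that rose with the smallest p-values were RBL2, the p130 relative of RB (0.68), the histone chaperone gene ASF1A (1.19) and the mitochondrial thymidine kinase TK2 (0.48). ASF1A had few counts, with 2.47, 2.44 and 1.89 CPM in siNC and 2.94, 5.87 and 6.71 CPM in siE7, and overlaps MCM9 on the opposite strand. ASF1A and TK2 lost their call in some of the alternatives. ASF1A and FAM111B (-1.71), the latter named after its value was seen, were the 2 genes of this list past the fold threshold. Of 30 mitosis genes 29 were tested, and 14 fell and none rose, with a median of -0.42. BIRC5 (-1.47), FOXM1 (-1.04) and CENPF (-0.86) had the smallest p-values there. Without siE7 replicate 1 the other replication genes gave 39 lower and 26 higher, and the mitosis genes 24 lower and 2 higher, where 29.5% and 28.9% of all genes were called. Leaving out any other library gave 11 to 18 lower and 1 to 3 higher among the other replication genes, and 10 to 14 lower and 0 higher among the mitosis genes, where 10.3% to 12.9% of all genes were called lower and 10.6% to 13.9% higher.

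**Figure D5:**
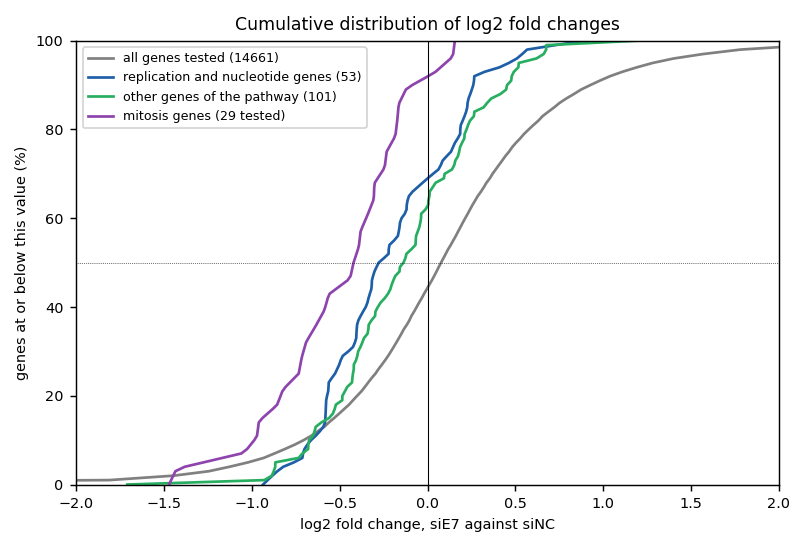
Share of genes in % (y axis) at or below each log2 fold change of siE7 against siNC (x axis, drawn from -2 to 2) for all tested genes, the 53 genes, the 101 other genes and the 29 mitosis genes. The curve of the 53 genes crosses 50% at -0.28, that of the mitosis genes at -0.42, that of the 101 genes at -0.14 and that of all tested genes at 0.08.

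Of the 53 genes, 34 overlap another annotated gene, 27 of them on the opposite strand and 15 on the same strand, and 10 have annotated pseudogenes of their own name. An overlap means here that the spans of the genes meet, introns included, and shared exons were not checked. The library kit kept the strand, but the sources used here do not say whether counting used it. How many reads such pairs share is therefore not known. MCM7, for example, contains 3 microRNA genes on its own strand and meets another gene on the other strand. Among the genes with neither an overlap nor a pseudogene were E2F1, E2F2, CCNE1, RFC2 and TK1.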

How the data were processed

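SCC-9 RNA from 3 siNC and 3 siE7 libraries was sequenced by the authors as polyadenylated, directional, paired-end NovaSeq libraries. The authors deposited whole-number read counts for 25349 genes without normalization. The submitters' processing notes name HISAT2, DESeq2 and GRCh38. The counting tool, its annotation and its use of the strand are not given in the sources used here. The 53 genes and the other lists were chosen with earlier results of these data known. Groups were taken from the titles.

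Genes were filtered with filterByExpr in edgeR 4.0.16 (R 4.3.3), which kept 14661, and libraries of 25608192 to 29550264 counts were scaled by TMM. The groups were tested with glmQLFit (robust) and glmQLFTest of edgeR, its quasi-likelihood test, without a covariate, and p-values were adjusted by Benjamini-Hochberg over all tested genes. A call is an adjusted p under 0.05, and a differentially expressed gene also has a log2 fold change beyond 1. With 3 libraries against 3, an exact two-sided permutation test cannot give a p under 0.10, so none is used for single genes. The test was checked on counts simulated with a single dispersion. It called 36 of 45 genes set to a log2 fold change of -1, 36 of 41 set to 1 and 7 of 14455 unchanged genes. The simulation held no outlying library and no GC trend, so it does not cover the behaviour of siE7 replicate 1. Names were given by a rule: all 53 genes, with values per library for those called with the largest changes and for 1 or 2 per role with the smallest p, 3 genes per direction of each further list, and MKI67. GMNN, RFC1, RRM1, RRM2, MCM6, ORC1, POLA1, FEN1 and CCNE2 were given per library after their values were seen.

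The alternatives were DESeq2 1.42.0, limma-voom (limma 3.58.1), scaling by RLE or upper-quartile factors or by library totals alone, no filter, at least 10 counts in every library, a replicate block and each library left out. Correction of each library for its trend with GC (lowess, span 0.3), alone, with the block or without siE7 replicate 1, was added after seeing the data. Positions, lengths and GC content come from GENCODE release 44 on GRCh38 (25283 identifiers matched without their version), and promoters from RefSeq. Figures were drawn with matplotlib 3.10.9.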

Additional observations from a re-analysis of the deposited data

How the results depend on the processing

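Without composition scaling, 4030 of all tested genes (27.5%) were called higher and 11.1% lower. Of the 53 genes 7 were called higher, of which 1, E2F2, passed the fold threshold. The median log2 fold change was then -0.12 for the 53 genes, -0.24 for the MCM helicase, 0.41 for origin licensing, -0.15 for GINS and CDC45, -0.12 for polymerases and primase, -0.24 for RPA and Okazaki fragment joining, -0.18 for nucleotide enzymes, 0.68 for S phase entry and -0.049 for fork protection. The other replication genes gave 16 higher, 12 lower and a median of 0.040, and the mitosis genes 9 lower and -0.25. MCM6 (0.0027), MCM10 (0.055), GINS4 (0.0099), PRIM2 (0.071), RRM2 (0.050), CHAF1A (0.12) and TIMELESS (0.00034), none of them called, turned above 0, where the median of all genes moved up by 0.169.

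With the GC trend removed, 3828 of all genes (26.1%) were called lower and 24.5% higher. The 53 genes gave 6 higher, 1 lower past the fold threshold (GINS1) and a median of -0.34, with 0.43 for S phase entry and -0.35 for fork protection. The other replication genes gave 12 higher and 46 lower, and the mitosis genes 25 lower with a median of -0.48. PRIM1 (-0.028), POLD3 (-0.0011), POLE2 (-0.12) and RPA3 (-0.019) turned below 0. Without siE7 replicate 1 in that fit, 4009 genes (26.7%) were called higher and 4399 (29.3%) lower. The 53 genes gave 8 higher, and GINS1, called lower at -1.155, was the 1 gene past the fold threshold. The medians were -0.41 for all 53, -0.38 for polymerases, -0.50 for nucleotide enzymes and -0.42 for fork protection. The other replication genes gave 16 higher and 50 lower, the mitosis genes 26 lower and a median of -0.55, PRIM1 -0.10 and POLE2 -0.12.

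The deviations of same-numbered libraries had correlations of -0.039, -0.021 and -0.052. Each deviation is taken from the mean of its group, and the siE7 mean holds the outlying siE7 replicate 1. These values therefore cannot settle whether the libraries were paired. With the replicate block, 21 of the 53 genes were called lower and 3 higher, where 16.1% and 17.7% of all genes were, the median was -0.30, 3 other replication genes were called higher and POLE2 gave -0.041. MCM4, CDC45 and RPA2 lost their call, and no other of the 27 calls was lost. With the block and the GC trend removed together, 3797 genes (25.9%) were called lower and 24.2% higher. The 53 genes then gave 5 higher and a median of -0.34, with 0.42 for S phase entry and -0.34 for fork protection. Of all 53 genes 1 was past the fold threshold. The other replication genes gave 13 higher and 45 lower, the mitosis genes 23 lower and a median of -0.49, PRIM1 -0.025, POLE2 -0.15 and RPA3 -0.034.

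The median of the 53 genes was -0.32 with DESeq2 and with RLE factors, -0.30 with limma-voom, -0.25 with upper-quartile factors and -0.25 with at least 10 counts in every library. DESeq2, RLE and limma-voom each called 3 other replication genes higher, where 16.3%, 15.8% and 16.2% of all genes were. DESeq2 and RLE gave a mitosis median of -0.47, and POLE2 was -0.045 with DESeq2, -0.048 with limma-voom, -0.045 with RLE and -0.0075 without a filter.

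With each library left out in turn, 1598 to 4343 of all genes (10.6% to 28.9%) were called higher and 1552 to 4422 (10.3% to 29.5%) lower. Of the 53 genes 1 to 11 were called higher and 15 to 32 lower, with 0 to 1 lower past the fold threshold. The median ran from -0.38 to -0.25 over the 53 genes, -0.54 to -0.36 for MCM, -0.44 to -0.28 for GINS and CDC45, -0.51 to -0.15 for polymerases, -0.55 to -0.34 for RPA and Okazaki joining, -0.48 to -0.30 for nucleotide enzymes, 0.32 to 0.47 for S phase entry and -0.38 to -0.16 for fork protection. The other replication genes gave 1 to 26 higher and 11 to 39 lower, and the mitosis genes 0 to 2 higher, 10 to 24 lower and medians of -0.48 to -0.42. RFC3 (-0.018 to 0.42), PRIM1 (-0.00022 to 0.20), POLE2 (-0.33 to 0.14), RPA3 (-0.10 to 0.22) and CDC25A (-0.031 to 0.22) changed sign. Apart from what the fits were made of, the cause of these changes was not tested. Counting error is largest in the genes of few counts, such as POLE2 and PRIM1, and its share of their spread was not tested.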
